A study of Mus musculus with 4 samples.

Results

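In the deposited values, regulatory dendritic cells (DCreg) had a far higher level of 4 mature miRNAs than mature dendritic cells (maDC), immature dendritic cells (imDC) or haematopoietic stem cells (HSC): miR-31-5p, miR-129-5p, miR-129-2-3p and miR-182-5p. The deposited reads showed this excess for 3 of them, and held 1 read of miR-129-2-3p in DCreg and 0 elsewhere. These 4 of the 1078 mature miRNAs in the deposited table were chosen because each was highest in DCreg when scaled to the library total, so their excess in DCreg is a description and carries no test. All libraries came from C57BL/6J mouse cells, with 1 library per cell type and no replicates. To make DCreg, maDC were seeded on splenic stromal cells of endothelial-like type and held there for 7 days or longer in medium with 5% serum, then taken off with trypsin and selected on CD11c beads. maDC were bone marrow cells grown with GM-CSF (10 ng/mL) and IL-4 (1 ng/mL), given LPS (10 ng/mL) from day 4 and selected on CD11c beads at day 8. imDC received the same cytokines for 6 days, with no LPS and no bead selection described. HSC were the c-Kit+ Sca1+ lineage-negative fraction of bone marrow, sorted to a purity above 95%. The protocol text that all 4 samples share gives the age of the mice used for bone marrow as 5 to 6 weeks, and does not say how many animals were pooled. In bulk libraries such as these, fewer cells of a type and less RNA per cell cannot be told apart.

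A miRNA hairpin is cut into a short duplex, and either arm (5p or 3p) can be loaded into an Argonaute protein. The loaded strand finds target mRNAs mainly through its seed, bases 2 to 8 from the 5′ end. miR-31 is widely expressed in epithelia and other solid tissues, and in human T cells it has been reported to target the mRNA of the transcription factor FOXP3. miR-129 is best known from brain. miR-182 is made with miR-96 and miR-183 from one primary transcript that is prominent in sensory organs, and in mouse helper T cells it is induced by IL-2 and targets Foxo1.

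The mature sequences are shown because the results below turn on single bases at their ends and on a run of A in one of them. They are from RefSeq (GRCm38.p6), matched all 4 members, and were identical to those in the deposited table. Capitals mark the seed.
miR-31-5p: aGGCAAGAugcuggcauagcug
miR-129-5p: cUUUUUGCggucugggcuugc
miR-129-2-3p: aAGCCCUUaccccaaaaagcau
miR-182-5p: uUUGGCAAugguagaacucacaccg
No 2 of them share a seed, so the 4 belong to 4 seed families. In the whole table, miR-129-1-3p was the single further miRNA with the seed of a member, that of miR-129-2-3p. It was listed at 10 units in DCreg, 0 in maDC, 2 in imDC and 0 in HSC.

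The Mir31 hairpin lies at chr4:88910557-88910662 on the minus strand (GRCm38.p6), where the lincRNA AL805899.1 has an exon. The miR-129-5p strand is encoded identically by 2 hairpins. Mir129-1 lies at chr6:29022619-29022691 on the plus strand, in an exon of the lincRNA Gm3294. Mir129-2 lies at chr2:94241364-94241453 on the minus strand, in an intron of Mir670hg and opposite Mir129b. Mir182 lies at chr6:30165918-30165992 on the minus strand and overlaps no other annotated gene. Only Mir129-1 and the miR-182 cluster share a chromosome, so the 4 miRNAs do not come from 1 locus.

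Levels are given on 2 scales. The first is the deposited value, which the file header calls a normalised count, as parts in 1000000 (ppm) of its library's total, which was 2725948 for DCreg, 4475569 for maDC, 5251069 for imDC and 4226458 for HSC. The second is a recount of the deposited read lists by exact match, as ppm of 3932627 recounted reads in DCreg, 5523681 in maDC, 5268866 in imDC and 5198012 in HSC. Intervals are 95% counting intervals on recounted reads. They cover counting error only and leave out the spread between libraries, since there was 1 library per cell type. PCR copies of 1 molecule cannot be recognised in these libraries, so the intervals may be too narrow even for counting error. As a check on the labels, the blood cell miRNAs miR-142 and miR-223 (both arms) had reads in every library and summed to 10199 ppm in DCreg, 14525 in maDC, 13430 in imDC and 24232 in HSC. miR-142-5p made up most of each deposited sum (9377 ppm in DCreg and 13196 in maDC). miR-142-3p had 94.6 ppm in DCreg and 366 in maDC, and miR-223-5p had 58.0 and 329. miR-223-3p had 669 ppm in DCreg and 635 in maDC, but 396 and 423 by recount. The recounted sums of these blood cell miRNAs were 5635 ppm in DCreg, 8232 in maDC, 9611 in imDC and 13614 in HSC. The 5 miRNAs listed for dendritic and activated myeloid cells summed to 39297 ppm in DCreg, 70110 in maDC, 93341 in imDC and 7946 in HSC. Their recounted sums were 11860.5 ppm in DCreg, 16137 in maDC, 32052 in imDC and 2746 in HSC. miR-146b-5p made up most of the deposited sum (36546 ppm in DCreg and 67585 in maDC). miR-155-5p, which is induced on activation, had 141 ppm in DCreg, 1651 in maDC, 2609 in imDC and 47.6 in HSC. The other miRNAs of this list were higher in DCreg than in maDC. miR-146a-5p had 1115 ppm in DCreg, 309 in maDC, 1105 in imDC and 1561 in HSC. miR-511-3p had 1492 ppm in DCreg, 564 in maDC, 397 in imDC and 152 in HSC, with 3 recounted reads in DCreg. miR-511-5p had 4.04 ppm in DCreg and 0.894 in maDC. Both miR-155-5p and miR-146a-5p were lower in maDC, which received LPS, than in imDC.

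miR-31-5p was the most abundant member. Its deposited level was 1738 ppm in DCreg, 34.9 ppm in maDC, 12.6 ppm in imDC and 33.1 ppm in HSC. By recount it had 3656 reads in DCreg, 60 in maDC, 44 in imDC and 96 in HSC. DCreg stood alone, with the other 3 libraries far below it and close to each other. The recounted fold of DCreg was 85.6 over maDC (66.3 to 112), 111 over imDC (82.8 to 153) and 50.3 over HSC (41.1 to 62.3). Among the other libraries the order depended on the scale. By deposited values maDC and HSC were level (1.05-fold) and imDC was lowest. By recount HSC was highest of the 3, with maDC at 0.588 of its level (0.419 to 0.820), and maDC and imDC were not separated by counting error (1.30-fold, 0.867 to 1.97). Its other arm, miR-31-3p, had 8 reads in DCreg, 0 in maDC, 2 in imDC and 1 in HSC, so the 5p arm was the one recovered in all 4 libraries (457 5p reads per 3p read in DCreg, 232 to 1059).

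miR-129-5p was at the lowest level of the 4 in DCreg by deposited value. It stood at 107 ppm there, 0.894 ppm in maDC, 1.71 ppm in imDC and 3.79 ppm in HSC. The recount gave 462 reads in DCreg, 6 in maDC, 10 in imDC and 18 in HSC, on nearly the same ppm scale (117 ppm in DCreg). The level in DCreg was clear of the others, and outside DCreg the miRNA was close to the limit of detection, where 3 reads equal 0.543 ppm in maDC. The recounted fold of DCreg was 108 over maDC (49.3 to 296), 61.9 over imDC (33.4 to 130) and 33.9 over HSC (21.2 to 57.8). Neither imDC against HSC (0.548-fold, 0.226 to 1.25) nor maDC against imDC (0.572-fold, 0.171 to 1.74) was separated by counting error, but maDC lay below HSC (0.314-fold, 0.102 to 0.825). Since both hairpins encode the same 5p sequence, the deposited table lists 143 units under Mir129-1 and 150 under Mir129-2 in DCreg, and reads cannot say which hairpin they came from.

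miR-182-5p had a different order. Its deposited level was 208 ppm in DCreg, 17.9 ppm in maDC, 38.3 ppm in imDC and 3.55 ppm in HSC. The recount gave 778 reads in DCreg, 66 in maDC, 160 in imDC and 12 in HSC. Unlike miR-31-5p and miR-129-5p, it had its next highest level in imDC and its lowest in HSC, and all steps of that order exceeded counting error. The recounted fold of DCreg was 16.6 over maDC (12.9 to 21.6), 6.51 over imDC (5.49 to 7.77) and 85.7 over HSC (48.8 to 167). Outside DCreg, imDC held 13.2 times the HSC level (7.32 to 26.0), and maDC held 0.393 of the imDC level (0.291 to 0.527). The order of HSC, imDC and maDC was not used in choosing the miRNA.

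miR-129-2-3p was listed at 303 ppm in DCreg (826 units), 2.90 ppm in maDC (13 units), 0.190 ppm in imDC (1 unit) and 3.08 ppm in HSC (13 units). These deposited values gave a ratio of 104 over maDC, 98.5 over HSC and 1591 over imDC. The last rests on 1 unit, and its interval with units treated as counts ran from 285 to 62922. By recount it had 1 read in DCreg and 0 in each of the other libraries. The plot of levels by library shows this member apart from the other 3.

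**Figure D1:**
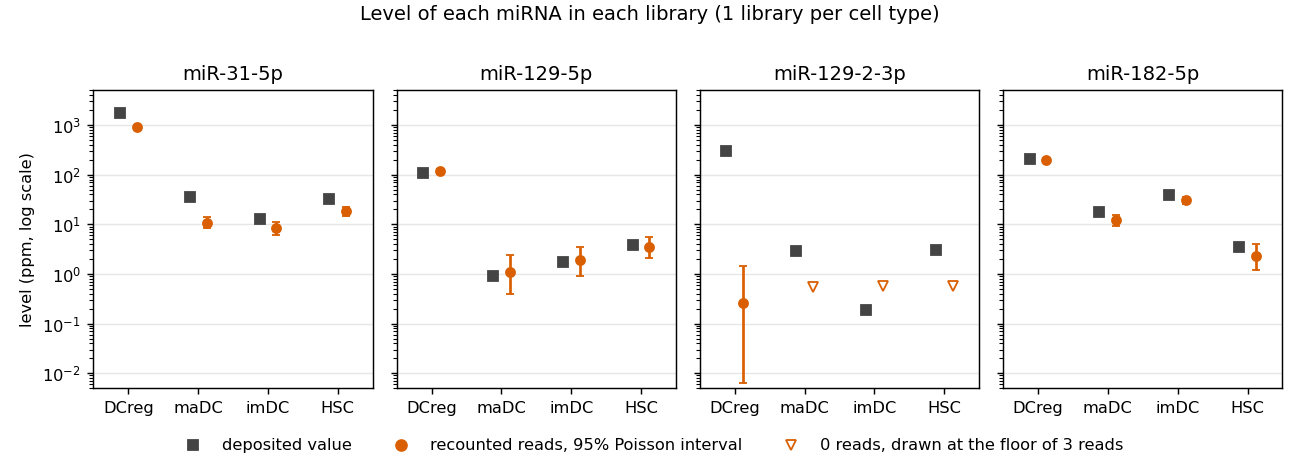
Level of each of the 4 miRNAs (one panel each) in DCreg, maDC, imDC and HSC, in ppm on a log axis, from deposited values (squares) and from recounted reads (circles, with exact Poisson 95% intervals; open triangles are 0 reads drawn at the floor of 3 reads). Both scales place miR-31-5p, miR-129-5p and miR-182-5p highest in DCreg, whereas miR-129-2-3p had 826 deposited units but 1 recounted read there.

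With a call set at 2-fold or more and 100 ppm or more in 1 of the 2 libraries, all 4 members were called higher in DCreg in each comparison by deposited values, and 3 of 4 by recounted reads. Over all miRNAs that reached 100 ppm, 20.3% (28 of 138) were called higher against maDC, 16.1% (27 of 168) against imDC and 19.4% (34 of 175) against HSC. In recounted reads these shares were 18.1%, 12.4% and 17.4%. The members were picked by this contrast, so nothing is read from the difference between their count and these shares. The median log2 ratio of the 4 members by deposited values was 6.14 against maDC, 6.50 against imDC and 5.77 against HSC. Over all tested miRNAs it was -0.34, -1.25 and -1.43 in the same order. By recounted reads the members' median was 5.22 against maDC, 4.29 against imDC and 5.35 against HSC, and that of all tested miRNAs was -0.34, -1.82 and -1.40. The recounted members' median includes miR-129-2-3p, whose 1 read against 0 has a ratio only through the pseudocount of 0.5. For miR-31-5p, miR-129-5p and miR-182-5p the recounted log2 ratios were 6.41, 6.64 and 4.04 against maDC. They were 6.78, 5.88 and 2.70 against imDC, and 5.65, 5.05 and 6.36 against HSC. The 3 comparisons share the DCreg library.

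**Figure D2:**
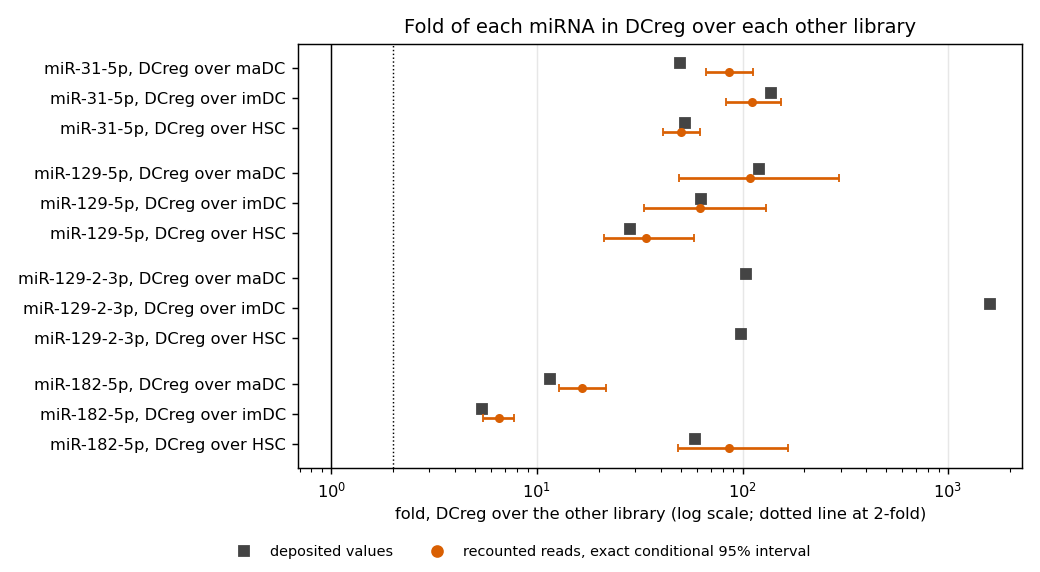
Fold of DCreg over maDC, imDC and HSC for each miRNA, on a log axis, from deposited values (squares) and from recounted reads (circles, with exact conditional 95% intervals). For miR-31-5p, miR-129-5p and miR-182-5p every fold lies right of the dotted 2-fold line, from 5.42 for miR-182-5p over imDC to 138 for miR-31-5p over imDC by deposited values; no recounted fold exists for miR-129-2-3p.

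Of the 114 miRNAs at 100 ppm or more in DCreg, 27 were highest in that library. Ranked by the ratio of DCreg to the next library, with a pseudocount of 0.5, the members took ranks 1 (miR-129-2-3p, 94.9), 2 (miR-31-5p, 49.7), 3 (miR-129-5p, 27.6) and 5 (miR-182-5p, 5.42). miR-125b-5p, known for its role in haematopoietic progenitors, was at rank 4 with a ratio of 6.26, and its relative miR-125a-5p followed at rank 6 with 3.93. By recount the order of the first 4 was miR-31-5p (50.1), miR-129-5p (33.0), miR-125b-5p (6.95) and miR-182-5p (6.50). On both scales miR-31-5p and miR-129-5p stood well apart from the next miRNA, and miR-182-5p did not. The members were chosen for being highest in DCreg, so their high ranks were largely set by that choice. The recount used the same libraries.

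Profiles over the 4 libraries were compared by the distance between centred log2 levels, among 194 miRNAs that reached 100 ppm. miR-31-5p and miR-129-5p lay close together, with a distance of 1.81 by deposited values and 0.908 by recount. Both were chosen as highest in DCreg, so their closeness comes in part from that choice. miR-182-5p was at a distance of 3.89 from miR-31-5p and 3.93 from miR-129-5p. The nearest miRNA outside the members was miR-125b-5p for miR-31-5p (2.34), miR-129-5p (1.82) and miR-129-2-3p (3.98). It had 363 ppm in DCreg, 16.1 ppm in maDC, 13.5 ppm in imDC and 58.0 ppm in HSC. For miR-31-5p the next were miR-125a-5p (3.16) and miR-130a-3p (3.23), and for miR-129-5p miR-130a-3p (2.68) and miR-99a-5p (2.78). The nearest to miR-182-5p were miR-99b-5p (1.88), miR-511-3p (2.12) and miR-2182 (2.22), which likewise had their lowest level in HSC. Unlike miR-182-5p, they were higher in maDC than in imDC by deposited values (987 against 755 ppm, 564 against 397 and 2115 against 1699). miR-130a-3p and miR-2182 had 0 recounted reads in all 4 libraries and miR-511-3p had 3 in DCreg, so those likenesses exist on the deposited scale only. The same holds for the likeness of miR-129-2-3p to miR-125b-5p, since miR-129-2-3p had 1 recounted read in DCreg and 0 elsewhere.

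The reads behind miR-129-2-3p were looked for directly. Over its 22 bases the lists held 1 sequence without a difference, a 16-nt read with 2 copies in DCreg, and 2 longer reads with 2 differences each, with 1 copy each in DCreg. They are shown because they are all that was found within 3 differences; capitals mark bases that differ from the annotated sequence. A read with differences had to match at 18 bases or more.
miR-129-2-3p read of 16 nt: aagcccttaccccaaa
miR-129-2-3p read with G3A and T8C: aaAccctCaccccaaaaagca
miR-129-2-3p read with C12T and A15G: aagcccttaccTcaGaaagca
Positions are counted from 1 at the annotated 5′ end. The 16-nt read ends inside the run of A, before base 20, at which miR-129-1-3p differs (C20T), and it matches both, so the recount gives 1 read to each. maDC, imDC and HSC had no such read, and the exact 95% upper limit for 0 reads was 0.668 ppm in maDC, 0.700 ppm in imDC and 0.710 ppm in HSC. These limits cover counting error in the read lists only, which nearly lacked sequences with a run of A, as described below. The deposited levels lay above them in maDC (2.90 ppm) and HSC (3.08 ppm), and below in imDC (0.190 ppm). Allowing 1 mismatch in the recount did not bring the miRNA above 3 reads in any library. By deposited value, therefore, the 3p arm of Mir129-2 exceeded the 5p arm in DCreg (826 units against 293 for both hairpins), while by recount there were 1 and 462 reads.

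miR-129-2-3p has 5 A in a row, and mature sequences with 4 or more A in a row were as a group nearly missing from the read lists. The table holds 31 of them. In DCreg they summed to 71328 deposited units but 3151 recounted reads, against 2654620 units and 3929476 reads for the other 1047. Of those at 100 ppm or more in DCreg, 6 of 6 with such a run had recounted reads under 10% of their deposited value, compared with 8 of 108 without one. The counts were 4 of 4 and 9 of 117 in maDC, 4 of 5 and 8 of 149 in imDC, and 5 of 6 and 14 of 155 in HSC. Reads with 4 A in a row made up 0.0595% of the DCreg list and between 0.0544% and 0.0729% of the other lists. The reason for this gap was not tested.

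The 5′ ends of the other 3 members were fixed, so the seed was the annotated one in nearly every read. Reads starting at the annotated base made up 99.4% of miR-31-5p reads in DCreg (99.1% to 99.6%), 99.8% of miR-129-5p reads (98.8% to 100%) and 99.4% of miR-182-5p reads (98.5% to 99.8%). The median over 137 miRNAs with at least 100 reads in DCreg was 99.2%. The 3′ ends, in contrast, varied between members and libraries.

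The 3 commonest miR-31-5p reads of DCreg, and the commonest with an added base, are shown because they differ only in where they stop; capitals mark bases that match neither the mature sequence nor the hairpin after it.
miR-31-5p read of 21 nt: aggcaagatgctggcatagct
miR-31-5p read of 22 nt: aggcaagatgctggcatagctg
miR-31-5p read of 23 nt: aggcaagatgctggcatagctgt
miR-31-5p read with an added base: aggcaagatgctggcatagctgA
In DCreg these had 1026, 919, 872 and 162 copies, so the 3 templated forms were nearly equal in number. In maDC they had 4, 24, 16 and 5 copies, in imDC 11, 18, 6 and 2, and in HSC 23, 36, 15 and 4, and the annotated 22-nt form led in each of these 3 libraries. Reads that reached the last annotated base or went beyond made up 56.1% in DCreg (54.5% to 57.7%), 86.7% in maDC (75.4% to 94.1%), 59.1% in imDC (43.2% to 73.7%) and 59.4% in HSC (48.9% to 69.3%). Of the 4 libraries, maDC had the smallest share of miR-31-5p reads that stopped short of the annotated end. Untemplated bases were present in 12.9% of DCreg reads (11.8% to 14.0%), 23.3% of maDC reads (13.4% to 36.0%), 11.4% of imDC reads (3.79% to 24.6%) and 15.6% of HSC reads (9.02% to 24.5%).

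For miR-129-5p the annotated form was rare in DCreg. The 3 commonest reads of DCreg and the annotated form are shown because they differ at the last base.
miR-129-5p read of 20 nt: ctttttgcggtctgggcttg
miR-129-5p read with an added A: ctttttgcggtctgggcttgA
miR-129-5p read with an added T: ctttttgcggtctgggcttgT
miR-129-5p read as annotated: ctttttgcggtctgggcttgc
In DCreg they had 215, 71, 46 and 15 copies. In maDC they had 4, 0, 0 and 1, in imDC 2, 1, 0 and 4, and in HSC 5, 0, 0 and 12. Reads that reached the last annotated base made up 3.46% in DCreg (16 of 462, 1.99% to 5.56%), 16.7% in maDC (1 of 6), 50.0% in imDC (5 of 10, 18.7% to 81.3%) and 66.7% in HSC (12 of 18, 41.0% to 86.7%). The intervals of DCreg and HSC do not meet, although the HSC share rests on 18 reads. Untemplated 3′ bases were present in 43.9% of DCreg reads (39.4% to 48.6%), in 1 of 6 maDC reads, in 2 of 10 imDC reads and in 0 of 18 HSC reads, which allows a share of up to 18.5%. Additions made only of A were on 19.9% of DCreg reads and those made only of T on 15.8%. Over all recounted miRNAs the share of reads with untemplated bases was 15.9% in DCreg, 16.9% in maDC, 18.4% in imDC and 15.6% in HSC. By this share miR-129-5p ranked 16 of 137 miRNAs in DCreg.

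**Figure D3:**
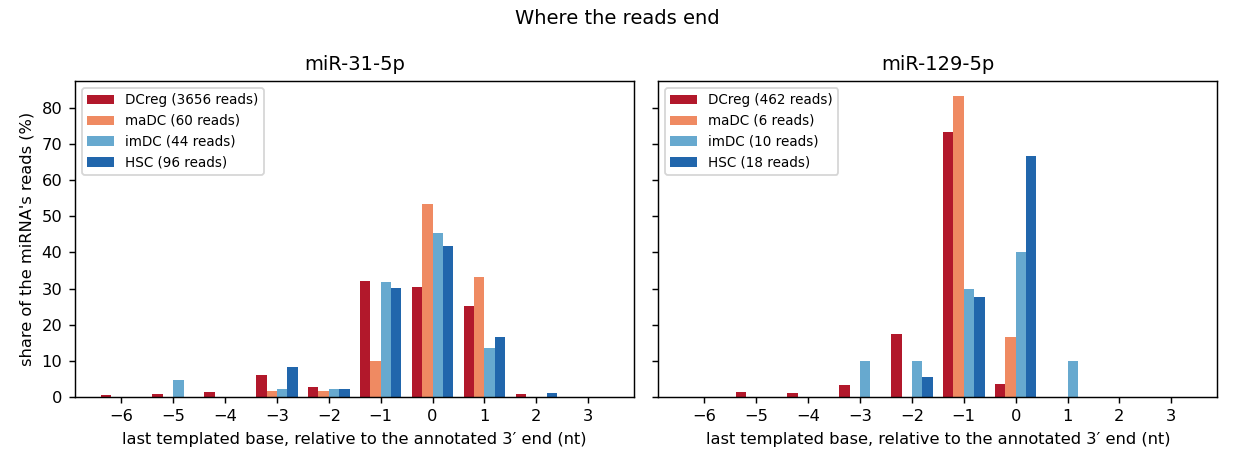
Share of miR-31-5p reads (left) and miR-129-5p reads (right) by the last templated base, in nt relative to the annotated 3′ end (0), in DCreg, maDC, imDC and HSC. In DCreg miR-31-5p reads divide among positions -1, 0 and 1 (32.1%, 30.4% and 25.0%), while 73.4% of miR-129-5p reads stop at -1. At that position maDC has 83.3% of 6 reads, imDC 30% of 10 reads and HSC 27.8% of 18 reads.

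The miR-182-5p reads of DCreg held a short form that was scarce in maDC and imDC. The sequences below are shown because they show the short form beside the longer ones.
miR-182-5p read of 16 nt: tttggcaatggtagaa
miR-182-5p read of 23 nt: tttggcaatggtagaactcacac
miR-182-5p read of 25 nt, as annotated: tttggcaatggtagaactcacaccg
miR-182-5p read of 26 nt: tttggcaatggtagaactcacaccgg
The 16-nt read had 305 copies in DCreg, 3 in maDC, 2 in imDC and 3 in HSC, and was the commonest miR-182-5p read in DCreg. The 23-nt form had 87 copies in DCreg, 11 in maDC, 21 in imDC and 0 in HSC. The annotated form had 41, 12, 17 and 3 copies in the same order of libraries, and the 26-nt form had 51, 6, 37 and 1. Reads of 16 or 17 nt made up 42.4% of miR-182-5p reads in DCreg (38.9% to 46.0%), 4.55% in maDC (0.947% to 12.7%), 1.25% in imDC (0.152% to 4.44%) and 25.0% in HSC (3 of 12, 5.49% to 57.2%). The HSC interval holds the DCreg share, so the HSC reads are too few to separate them. For all recounted miRNAs this share was 0.387% in DCreg, 0.101% in maDC, 0.743% in imDC and 0.410% in HSC, and miR-182-5p ranked 3 of 137 miRNAs by it in DCreg. The 16 bases were found in the GENCODE transcripts of 1 gene, Mir182. Reads of this length lie below the 18 to 30 nt that the labels give for the small RNA. They made up 6.17% of all listed reads in DCreg, 2.21% in maDC, 3.31% in imDC and 2.36% in HSC, and the part of this in the short form was not tested.

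Without reads under 18 nt, miR-182-5p remained higher in DCreg by a smaller fold. It then had 448 reads in DCreg, 63 in maDC, 158 in imDC and 9 in HSC. The fold of DCreg was 10.0 over maDC (7.68 to 13.3), 3.79 over imDC (3.15 to 4.57) and 65.8 over HSC (34.3 to 145). The folds over maDC and imDC were each more than 1.5 times smaller than those from all recounted reads (16.6 and 6.51), and the fold over HSC had been 85.7. miR-31-5p lost 32 of its DCreg reads under this limit and miR-129-5p lost 5. This limit was chosen after the reads had been seen.

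**Figure D4:**
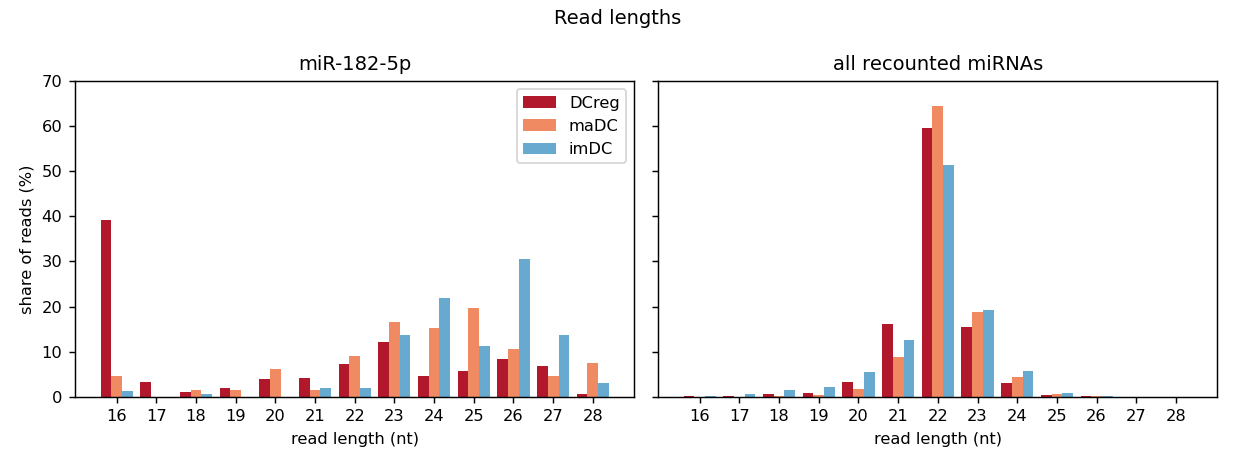
Share of reads by length (16 to 28 nt) for miR-182-5p (left) and for all recounted miRNAs (right) in DCreg, maDC and imDC; HSC, with 12 miR-182-5p reads, is not drawn. In DCreg 39.2% of miR-182-5p reads were 16 nt long, against 4.55% in maDC and 1.25% in imDC, while reads of all miRNAs centred on 22 nt in each library.

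miR-182 lies in a cluster with miR-96 and miR-183 that spans chr6:30165918-30169737, or 3820 bases, on the minus strand. Of the 6 mature arms of this cluster, miR-183-5p, miR-183-3p and miR-96-5p had enough reads to follow beside miR-182-5p. miR-183-5p had 75 reads in DCreg, 13 in maDC, 43 in imDC and 0 in HSC. Its fold in DCreg was 8.10 over maDC (4.46 to 15.9) and 2.34 over imDC (1.59 to 3.48). Against the 0 reads of HSC the exact lower limit of its fold was 26.2. miR-183-3p had 143 reads in DCreg, 25 in maDC, 92 in imDC and 3 in HSC, with folds of 8.03 over maDC (5.23 to 12.8) and 2.08 over imDC (1.59 to 2.74). Both arms thus had the library order of miR-182-5p. miR-96-5p had 19 reads in DCreg, 5 in maDC, 43 in imDC and 1 in HSC. It was 5.34-fold higher in DCreg than in maDC (1.93 to 18.3), but 0.592 of the imDC level (0.326 to 1.04). By deposited values miR-96-5p was 9.90 ppm in DCreg and 9.33 ppm in imDC. The passenger arms miR-182-3p and miR-96-3p had 0 reads in DCreg and maDC, 5 and 1 in imDC and 0 in HSC.

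The proportions within the cluster were compared between libraries. There were 40.9 miR-182-5p reads per miR-96-5p read in DCreg (26.0 to 68.4), 13.2 in maDC (5.38 to 42.0) and 3.72 in imDC (2.64 to 5.34). Per miR-183-5p read there were 10.4 in DCreg (8.18 to 13.3), 5.08 in maDC (2.77 to 10.0) and 3.72 in imDC (2.64 to 5.34). From reads of 18 nt or more there were 26.4 miR-182-5p reads per miR-96-5p read in DCreg (16.3 to 45.6), 12.6 in maDC (5.12 to 40.1) and 3.67 in imDC (2.61 to 5.28). Per miR-183-5p read there were then 6.31 in DCreg (4.90 to 8.22), 4.85 in maDC (2.64 to 9.60) and 3.85 in imDC (2.72 to 5.57). Without the short reads, the DCreg and imDC intervals stayed apart for miR-96-5p and overlapped for miR-183-5p.

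**Figure D5:**
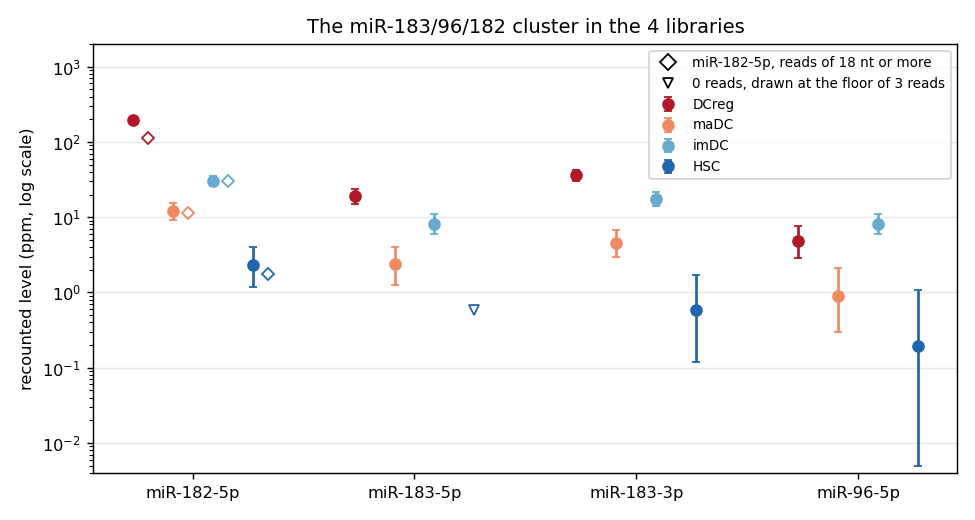
Recounted level in ppm (log axis) of miR-182-5p, miR-183-5p, miR-183-3p and miR-96-5p in DCreg, maDC, imDC and HSC, with exact Poisson 95% intervals; open diamonds are miR-182-5p from reads of 18 nt or more and the open triangle is 0 reads drawn at the floor of 3 reads. miR-182-5p and both miR-183 arms were highest in DCreg and next in imDC. miR-96-5p was 4.83 ppm in DCreg and 8.16 ppm in imDC, not separated by counting error (0.592-fold, 0.326 to 1.04). By deposited values it was 9.90 ppm in DCreg and 9.33 ppm in imDC.

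In miR-183 both arms were recovered, and the 3p strand did not start at its annotated base. The 3p arm had 1.91 reads per 5p read in DCreg (1.43 to 2.56), 1.92 in maDC (0.947 to 4.09) and 2.14 in imDC (1.47 to 3.15). The sequences below are shown because the observed 3p strand begins 1 base inside the annotated one.
miR-183-3p as annotated, seed in capitals: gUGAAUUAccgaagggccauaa
miR-183-3p, commonest read: tgaattaccgaagggccataa
Reads with this start made up 97.9% of miR-183-3p reads in DCreg (94.0% to 99.6%), 24 of 25 in maDC, 95.7% in imDC (89.2% to 98.8%) and 3 of 3 in HSC. The seed of the observed strand is GAAUUAC in place of the annotated UGAAUUA. The median share of reads that start 1 base inside was 0.204% over 137 miRNAs in DCreg, where miR-183-3p ranked first. This start was shared by all libraries and did not set DCreg apart.

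Markers of cells that could be carried into the DCreg library were read beside these results. DCreg were grown on endothelial-like stroma, and the endothelial miRNAs miR-126-3p and miR-126-5p had 1 and 2 reads in DCreg. That list summed to 1.47 ppm in DCreg, 2.46 ppm in maDC, 8.00 ppm in imDC and 121 ppm in HSC. Among 10 stromal and mesenchymal miRNAs of the table, 7 had reads in DCreg. The 3 without were miR-218-5p, miR-199b-5p and miR-199a-5p. The list summed to 2570 ppm in DCreg, 1013 ppm in maDC, 929 ppm in imDC and 1972 ppm in HSC by deposited values. By recount the sums were 1636 ppm in DCreg, 684 in maDC, 857 in imDC and 1644 in HSC. DCreg was thus highest on the deposited scale only. miR-152-3p, which is also found in dendritic cells, made up most of the deposited sum in DCreg, maDC and imDC but not in HSC. It had 2258 ppm in DCreg, 826 ppm in maDC, 857 ppm in imDC and 753 ppm in HSC. The rest of the list went both ways between DCreg and maDC. miR-143-3p had 155 ppm in DCreg and 40.9 ppm in maDC, miR-10b-5p had 55.4 and 7.37 ppm, and miR-145-5p had 9.90 and 2.68 ppm. In contrast, miR-199a-3p had 79.6 ppm in DCreg and 119.5 ppm in maDC, miR-214-3p had 9.54 and 13.6 ppm, and miR-143-5p had 0.734 and 2.01 ppm. The part of stromal miRNAs in the level of the members was not tested.

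miR-129 and miR-182 are known from neural and sensory tissue, so neural and epithelial lists were read too. Among 8 neural miRNAs of the table, 7 had reads in DCreg, while miR-153-3p had none. Their sum was lowest in DCreg, at 422 ppm, with 793 ppm in maDC, 1702 ppm in imDC and 2478 ppm in HSC. miR-128-3p made up most of this sum in DCreg (370 ppm), maDC (421 ppm) and HSC (2345 ppm). In imDC the largest part was miR-9-5p, at 739 ppm. The brain miRNA miR-124-3p had 2 reads in DCreg. Of 7 epithelial miRNAs 6 had reads in DCreg and miR-205-5p had none, and their sum was likewise lowest there, at 46.6 ppm, with 147 ppm in maDC, 314 ppm in imDC and 203 ppm in HSC. The lymphoid list summed to 3864 ppm in DCreg, 6315 ppm in maDC, 8512 ppm in imDC and 13209 ppm in HSC. The erythroid list summed to 2.20 ppm in DCreg, 1.56 ppm in maDC, 19.4 ppm in imDC and 15231 ppm in HSC. None of these 4 sums was higher in DCreg than in imDC or HSC, but the erythroid sum was above that of maDC. Within the neural and epithelial lists, single miRNAs went both ways between DCreg and HSC. miR-9-5p had 6.24 ppm in DCreg and 0.946 ppm in HSC, and miR-200a-3p had 18.3 and 10.6 ppm. In contrast, miR-128-3p had 370 ppm in DCreg and 2345 ppm in HSC, and miR-200c-3p had 8.44 and 108 ppm. The part of such cells in the level of the members was not tested.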

How the data were processed

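Per the labels' protocols, small RNA of 18 to 30 nt was amplified for 12 cycles and sequenced on the Solexa platform, reads from other RNA classes (ribosomal, transfer, messenger, small nuclear and nucleolar) were removed, and the remainder was compared with miRBase release 19. No source used here gives the aligner, mismatches or genome build. The deposited table holds a whole-number score per mature miRNA and hairpin, called normalised counts in its header; how it was normalised is not given. Scores were summed over hairpins and scaled to 1000000 per library. The deposited lists hold counts of reads per unique sequence: 4904897 reads in DCreg, 6572858 in maDC, 6554086 in imDC and 6277096 in HSC.

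Reads were recounted against the table's mature sequences with at least 16 matched bases, a 5′ end within 2 nt and at most 5 unmatched 3′ bases, ties being divided; 80.2%, 84.0%, 80.4% and 82.8% were placed in that order. The recount code was checked on reads simulated from the same mature sequences, with end changes that its rules allow. That check says nothing of reads missing from the lists. With 1 library per group there is no test: intervals are exact (Clopper-Pearson or Poisson) and cover counting error. Log2 ratios, calls and ranks use a pseudocount of 0.5; printed folds do not. Named were the members, their other arms and cluster, miRNAs sharing a seed, the 3 nearest profiles per member, and the top ranks and marker lists. Members and lists were chosen with earlier results of these data known. Alternatives covered scaling, pseudocount, call limits and recount rules. Scripts used Python 3.11.15, numpy 2.4.6 and scipy 1.17.1.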

Additional observations from a re-analysis of the deposited data

How the results depend on the processing

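The number of members called higher in DCreg was 4 in each of the 3 comparisons. It stayed at 4 under 8 of 15 alternatives in each comparison and was 3 under 6. With all listed reads as the total, miR-129-5p dropped under 100 ppm, and in 5 of the 6 recounts only miR-129-2-3p was not called. In the recount without unmatched 3′ bases the number was 2 in the comparison with maDC, 2 with imDC and 2 with HSC, since miR-129-5p also fell below 100 ppm there. No log2 ratio of a member changed its sign under any alternative that gave a value. Over these, the log2 ratio against maDC lay between 5.34 and 6.72 for miR-31-5p, 5.76 and 6.87 for miR-129-5p, and 3.24 and 4.29 for miR-182-5p. Against imDC it lay between 6.47 and 7.82, 5.31 and 6.61, and 1.91 and 3.29 in the same order, and against HSC between 5.43 and 6.34, 4.24 and 5.41, and 5.47 and 6.95. For miR-129-2-3p no recount gave a ratio, because both libraries were at or under 3 reads. Scaling changed the median log2 ratio of tested miRNAs against imDC, which was -1.25, to -0.35 with median-of-ratios and -1.87 with all listed reads as the total. The recount of reads of 18 nt or more was added after seeing the data. No paired analysis was possible because each cell type has 1 library; for the same reason no replicate could be left out.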

Other observations

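Beside miR-129-2-3p, 13 further miRNAs at 100 ppm or more in DCreg had recounted reads under 10% of their deposited units. miR-191-5p was listed at 19224 units with 0 recounted reads, miR-130a-3p at 2960 with 0, miR-664-5p at 300 with 0, miR-511-3p at 4066 with 3 and miR-320-3p at 43879 with 3094, and all 5 have 4 or more A in a row. The other 8, among them miR-2182 (7845 units, 0 reads) and miR-3074-5p (4089 units, 1 read), do not have such a run.

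Short reads were also common in DCreg for miR-148b-3p and miR-148a-3p, next in rank after miR-182-5p. Of their 398 and 108 recounted reads there, 42.0% and 35.2% were 16 or 17 nt long. miR-3473 (65.2%) and miR-720 (55.7%) ranked above miR-182-5p. The shares of these miRNAs were not compared with the other libraries. The miRNAs named here that are neither members nor their nearest profiles were chosen after their values were seen.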
